A study of Mus musculus with 63 samples.

Results

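The response to oncogenic ras was compared between keratinocytes without and with the epidermal growth factor receptor (EGFR). Of 14541 genes measured, *Dlk1*, *Cd320* and *Cyp2c37* are the 3 that passed the threshold for a difference as fitted. Under other settings 0 to 235 probes passed. In this comparison the genotypes lie in separate runs of experiment numbers, so run and genotype cannot be told apart. KO mock and KO ras (knockout cells without and with ras) also share no run, so ras and run cannot be told apart within the knockout. *Dlk1*, *Cd320* and *Cyp2c37* were chosen on these arrays for that difference. They are read by 5 probes with a single gene symbol: 2 for *Dlk1*, 2 for *Cd320* and 1 for *Cyp2c37*. In each case the difference means a lower ras response in knockout (KO) than in wild-type (WT) cells. For *Dlk1* and *Cd320* it came mostly from high values in the KO mock samples at 1 of the 2 probes. At the second probe the fitted difference was −2.18 for *Dlk1*, resting largely on 1 KO mock sample, and −0.27 for *Cd320*, and neither passed the threshold. For *Cyp2c37* it came mostly from low values in KO ras cells. Ras cells given EGFR inhibitors were outside the contrast that chose the genes, though their arrays helped set its estimate of spread. In their mean over 3 inhibitors, *Cyp2c37* passed as lower in KO than in WT, as did 3.49% of all probes. With each inhibitor alone it did not pass as fitted. The call in the mean held in 12 of 14 other settings and in 25 of 30 fits without 1 sample.

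All groups were skin keratinocytes of newborn CD-1 mice, either KO (EGFR knockout, throughout the animal) or WT. Ras groups received v-rasHa, the viral Harvey ras oncogene, in supernatant of Psi-2 retrovirus producer cells and were kept for 4 days. Mock groups carry that name in the labels, without further description. AG1478, erlotinib and PD153035, small molecules that block the EGFR kinase, were given at 1 µM for 2 h. The groups were KO ras with AG1478 (6 samples), WT ras with AG1478 (5), KO ras with erlotinib (4), WT ras with erlotinib (5), KO ras with PD153035 (5), WT ras with PD153035 (5), KO ras (5), WT ras (5), KO mock (3), WT mock with AG1478 (5), WT mock with erlotinib (5), WT mock with PD153035 (5) and WT mock (4). The 13 groups hold no KO mock cells given an inhibitor. On each array, 1 sample was paired with a commercial pool of RNA from mouse cell lines of several tissues, so every level below is a log2 ratio of sample over that pool, with log base 2 assumed. A ratio below 0 means less signal than the pool, not absence, and levels of different probes are not comparable.

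*Dlk1* encodes a membrane protein with EGF-like repeats, related to the Notch ligands but without the domain by which those activate Notch; the gene is imprinted, expressed from the paternal copy, and is best known for holding back fat cell formation. *Cd320* encodes the receptor that takes cobalamin (vitamin B12), carried by transcobalamin, into cells. *Cyp2c37* encodes a cytochrome P450 of the mouse 2C subfamily, known from liver for hydroxylating arachidonic acid. EGFR drives keratinocyte growth and delays their differentiation, and oncogenic ras signals downstream of it and also induces EGFR ligands.

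The sequences around the annotated starts are given because the genes were grouped by transcript levels, for the difference in ras response. The sequences come from RefSeq for build GRCm38.p6, plus strand, from 250 bases before to 50 bases after the start. They lie at chr12:109452573-109452872 for *Dlk1*, chr17:33842841-33843140 for *Cd320* (the first of 2 listed starts) and chr19:39992174-39992473 for *Cyp2c37*. Capitals mark the letters CCAAT on either strand.
Dlk1: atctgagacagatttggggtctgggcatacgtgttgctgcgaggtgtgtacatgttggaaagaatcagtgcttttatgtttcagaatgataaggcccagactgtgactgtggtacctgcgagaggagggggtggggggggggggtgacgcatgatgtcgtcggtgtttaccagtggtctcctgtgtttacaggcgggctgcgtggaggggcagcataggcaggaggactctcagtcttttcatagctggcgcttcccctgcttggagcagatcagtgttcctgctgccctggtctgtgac
Cd320: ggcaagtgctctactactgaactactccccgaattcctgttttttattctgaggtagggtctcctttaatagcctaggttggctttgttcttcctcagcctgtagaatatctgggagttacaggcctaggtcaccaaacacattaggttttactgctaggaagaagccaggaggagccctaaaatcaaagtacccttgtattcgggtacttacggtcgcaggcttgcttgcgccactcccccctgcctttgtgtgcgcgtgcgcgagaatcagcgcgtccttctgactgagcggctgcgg
Cyp2c37: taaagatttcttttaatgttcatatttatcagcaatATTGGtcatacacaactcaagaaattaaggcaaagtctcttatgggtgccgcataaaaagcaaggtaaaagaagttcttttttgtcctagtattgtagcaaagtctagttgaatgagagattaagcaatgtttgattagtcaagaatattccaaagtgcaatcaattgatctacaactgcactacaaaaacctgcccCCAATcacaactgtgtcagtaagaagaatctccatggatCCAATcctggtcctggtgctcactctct
The windows differed in composition: GC content was 55.7% for *Dlk1*, 51.7% for *Cd320* and 36.3% for *Cyp2c37*, against a median of 52.7% over 32851 RefSeq windows of the same length. They held 9, 13 and 1 CpG in the same order, against a median of 7. Both strands were searched for 5 motifs. The TATA box letters TATAAA were found in 13.6% of all windows and the CCAAT box letters CCAAT in 37.4%. The GC box letters GGGCGG were found in 35.7%. The AP-1 site letters TGANTCA were found in 7.81%. The letters TGGGAA, read by RBPJ, the partner of Notch on DNA, were found in 25.6%. None of these letters occurs in the printed *Dlk1* and *Cd320* windows. The *Cyp2c37* window holds CCAAT at −214, −17 and 22, counted from 0 at the first base of the gene. The window at the second listed *Cd320* start, chr17:33843176-33843475 (not printed), holds CCAAT at −70 and GGGCGG at −247, −237 and −60, with 66.7% GC and 25 CpG.

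Arrays held 24860 to 28047 values each. The mean of 19 keratinocyte markers lay above the mean of 18 markers of the reference pool by 2.46 to 6.06 on every array, and by 3.59 to 5.84 on the KO mock arrays. For *Egfr* itself, the knocked-out gene, there were 2 probes. The first averaged 1.99 in KO mock against 2.52 in WT mock and 2.25 in KO ras against 1.90 in WT ras, and the second averaged 0.70 in KO mock against 1.86 in WT mock and 0.60 in KO ras against 1.23 in WT ras. The sources used here do not say whether either probe lies in the deleted stretch, and so the *Egfr* values are no check of genotype. Experiment numbers in the labels fall into 8 runs, whose meaning is not given. KO mock is alone in run 4, WT mock and WT ras lie in runs 1 and 2, and KO ras lies in run 3 (replicates 1 to 3), run 5 (replicate 5) and run 6 (replicate 4). Run and genotype therefore cannot be told apart in any comparison without inhibitor. Within KO, ras and run cannot be told apart either, whereas WT mock and WT ras share runs 1 and 2. KO mock replicate 2 had the narrowest spread of all arrays (SD 0.753, against 0.921 to 1.75 on the others), and the KO mock arrays are all of the forward dye order.

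The first *Dlk1* probe was high in KO mock and near the pool elsewhere. It read 3.79, 1.96 and 3.49 in the KO mock samples, against 0.24, 0.08, −0.48 and −0.79 in WT mock. All 3 KO mock samples lay above all 59 other samples, whose lowest, median and highest values were −2.18, −0.28 and 1.51. Of 19386 probes with a value in every sample of the series, 0.098% had all KO mock samples above every other sample. KO ras read −0.28, −1.78, −0.48, 0.67 and −1.39, against −0.54, −1.20, 0.00, 0.58 and 0.66 in WT ras, and these groups overlapped. The 12 group means other than KO mock ran from −0.65 (KO ras) to 0.01 (KO ras with PD153035), and no 2 neighbours among them in order of mean differed by more than their SD. In bulk samples, fewer cells that express a gene and less RNA per cell cannot be told apart. Reversed arrays read 1.16 ± 0.18 (SE) higher than forward arrays at this probe, a dye effect taken up by a term in the fit. The highest value outside KO mock (1.51, KO ras with AG1478, replicate 3) is on an array read here as reversed, against its label.

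By ratio, the second *Dlk1* probe was high in only 1 of the 3 KO mock samples. It read 0.01, 0.74 and 4.02 in KO mock, against 0.47, 0.63, 0.41 and 0.68 in WT mock. KO mock still had the highest group mean (1.59), but 42 of the 59 other samples lay above the lowest KO mock value. KO ras read 0.00, 0.22, −0.43, 0.50 and −0.44, against 0.36, 0.42, 1.71, 0.71 and 1.84 in WT ras. The highest sample outside KO mock was 2.85, in WT ras with AG1478. KO mock replicate 1, highest of all at the first probe, was ordinary at the second, so the probes disagree on the same RNA. The sources used here do not say which transcripts each probe reads.

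The first *Cd320* probe was high in 2 of the 3 KO mock samples. It read 2.25, 0.04 and 3.24 in KO mock, against −0.10, 0.20, −1.17 and −0.49 in WT mock. Replicate 2 was inside the WT mock range, and 6 of the 59 other samples lay above it. KO ras read −2.38, −2.09, −1.68, −1.08 and −0.77, against −1.15, −1.18, −1.21, 0.46 and 0.02 in WT ras. KO ras lay below all KO mock samples, as for 1.74% of 28034 probes, but overlapped WT ras. The 3 KO ras arrays of run 3 averaged −2.05, and those of runs 5 and 6 read −0.77 and −1.08. In order of group mean, KO mock (1.84) and KO ras (−1.60) stood apart from their neighbours by more than the larger SD of the pair, and the other 11 group means, between −0.72 and −0.16, did not.

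The second *Cd320* probe lay below the pool in every sample and showed no such pattern. It read −1.49, −1.72 and −2.86 in KO mock, against −1.30, −2.16, −1.20 and −1.92 in WT mock. Its 13 group means ran from −2.02 in KO mock to −1.28 in WT ras with erlotinib, with overlap throughout. KO mock, the highest group at the first probe, was the lowest at this one.

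*Cyp2c37* followed another pattern, with the low end in KO ras. It read −1.80, −3.41, −1.63 and −1.45 in KO ras replicates 1 to 4, with no value on the array of replicate 5, against −0.46, −0.12, −0.10, 1.08 and 0.43 in WT ras. All KO ras samples with a value lay below all WT ras samples, which held for 1.32% of 27966 probes. It read 0.58, −0.04 and 0.17 in KO mock, against 0.35, −1.29, −1.08 and −0.99 in WT mock. KO mock lay above 3 of the 4 WT mock samples and inside the range of the inhibitor groups of WT mock, which reached 0.77. KO ras also lay below all KO mock samples, as for 1.74% of 28034 probes. The means were −2.07 in KO ras against 0.23 in KO mock, and 0.17 in WT ras against −0.75 in WT mock. In WT the groups overlapped, with WT mock replicate 1 above 3 of the 5 WT ras samples. No neighbours among the 13 group means differed by more than their SD.

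**Figure D1:**
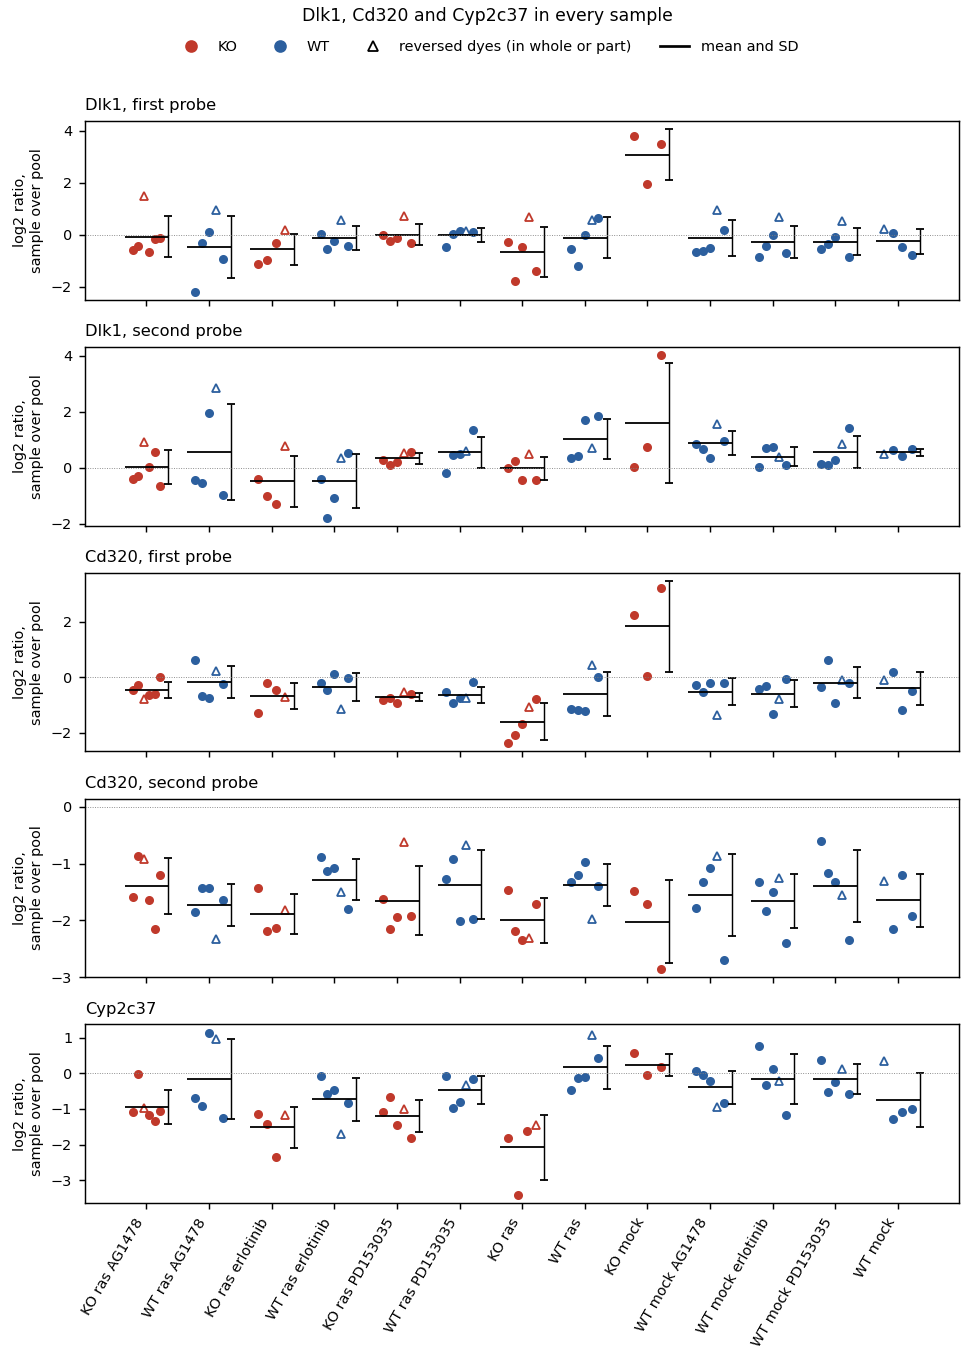
Log2 ratio of sample over reference pool (vertical axis) for the 5 probes in each sample of the 13 groups (horizontal axis), with group mean and SD; red is KO, blue is WT and triangles are samples wholly or partly from reversed arrays. The first *Dlk1* probe is high in all 3 KO mock samples, the first *Cd320* probe in 2 of them, and *Cyp2c37* is lowest in KO ras.

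Ranks within a sample do not depend on the spread of its array. They gave the same picture at every member probe but the second *Dlk1* probe. The first *Dlk1* probe stood at the 99.3, 99.0 and 99.1 percentile of all probes in KO mock replicates 1, 2 and 3, against 3.87 to 94.9 (median 40.9) in the other samples. Replicate 2, whose ratio was the smallest of the group, thus ranked as high as the other KO mock samples. The second *Dlk1* probe stood at 52.5, 91.3 and 99.4 in the same order, against 66.5 to 79.3 in WT mock. Over all samples outside KO mock it ran from 7.81 to 98.6. By rank, KO mock replicates 2 and 3 thus lay above every WT mock sample at that probe. The first *Cd320* probe stood at 97.2, 55.0 and 98.9 in KO mock, against 3.42 to 78.4 (median 31.8) elsewhere. Replicate 2 was mid-range by rank as well as by ratio. The second *Cd320* probe stood at 2.39 to 11.3 in KO mock, against 3.23 to 25.5 elsewhere. *Cyp2c37* stood at 48.5 to 73.5 in KO mock, against 1.05 to 91.9 (median 25.5) in the other samples, so KO mock was not extreme.

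**Figure D2:**
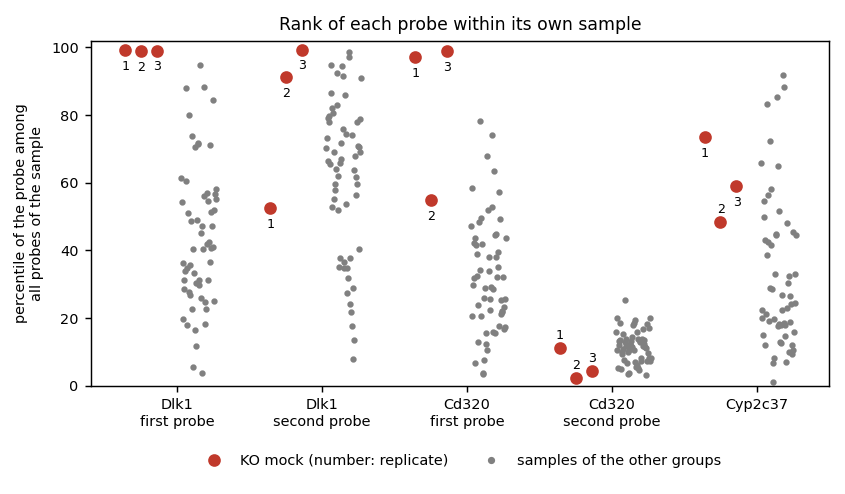
Percentile of each member probe among all probes of the same sample (vertical axis, 0 to 100) for KO mock (red, numbered by replicate) and for all other samples (grey). The first *Dlk1* probe lies between 99.0 and 99.3 in KO mock and at most at 94.9 elsewhere.

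The comparison that chose the genes is the ras effect in KO minus the ras effect in WT. Over 27852 probes fitted with limma, 3 (0.0108%) passed an adjusted p of 0.05, all with a negative difference, and they are the first *Dlk1* probe, the first *Cd320* probe and *Cyp2c37*. Leaving out replicate 1 of KO mock made that count 1, and leaving out replicate 2 made it 50. The fitted differences were −4.01 ± 0.52 for *Dlk1*, −3.22 ± 0.60 for *Cd320* and −3.28 ± 0.63 for *Cyp2c37* (log2 ± SE). The second probes, fitted in the same comparison, gave −2.18 ± 0.77 for *Dlk1* and −0.27 ± 0.52 for *Cd320*. Without KO mock replicate 3 the second *Dlk1* probe gave −0.96. These values describe the selection and carry no test here.

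The component effects show where each difference lay. KO mock and KO ras share no run, so ras and run cannot be told apart in the values for ras in KO. For the first *Dlk1* probe the fit gave −3.96 ± 0.39 for ras in KO and 0.05 ± 0.36 for ras in WT, and KO minus WT was 3.46 ± 0.40 in mock and −0.55 ± 0.33 in ras cells. For the first *Cd320* probe it gave −3.44 ± 0.44 for ras in KO and −0.22 ± 0.41 for ras in WT, and KO minus WT was 2.23 ± 0.46 in mock and −0.99 ± 0.38 in ras cells (−0.29 without the KO ras arrays of run 3). For *Cyp2c37* it gave −2.38 ± 0.48 for ras in KO and 0.90 ± 0.42 for ras in WT (0.27 with array weights), and KO minus WT was 1.02 ± 0.48 in mock and −2.26 ± 0.42 in ras cells. The larger genotype difference therefore lay in mock cells for *Dlk1* and *Cd320* and in ras cells for *Cyp2c37*. The probes that passed the threshold made up 0.539% of those tested for ras in KO, 0.183% for ras in WT, 1.11% for KO minus WT in mock and 1.92% for KO minus WT in ras.

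How far the selection itself rests on single samples was described by leaving out each of the 17 samples of the 4 groups in turn. *Dlk1* stayed past the selection threshold in all 17 fits, from −4.57 when KO mock replicate 2 was absent to −3.66 when KO mock replicate 1 was. *Cd320* did so in 9 of 17, from −4.12 when KO mock replicate 2 was absent to −2.52 when KO mock replicate 3 was. *Cyp2c37* did so in 8 of 17, between −3.61 and −2.85. Without the 3 KO ras arrays of run 3, a choice made after seeing the data, *Dlk1* was −4.07, inside the threshold, and *Cd320* was −2.51, outside it, while *Cyp2c37*, left with 1 KO ras value, was not fitted. Over other settings *Dlk1* was inside in 14 of 15, *Cd320* in 10 of 15 and *Cyp2c37* in 6 of 13, and with run as a random block only *Dlk1* was. These counts describe how the genes came to be chosen and support none of them.

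**Figure D3:**
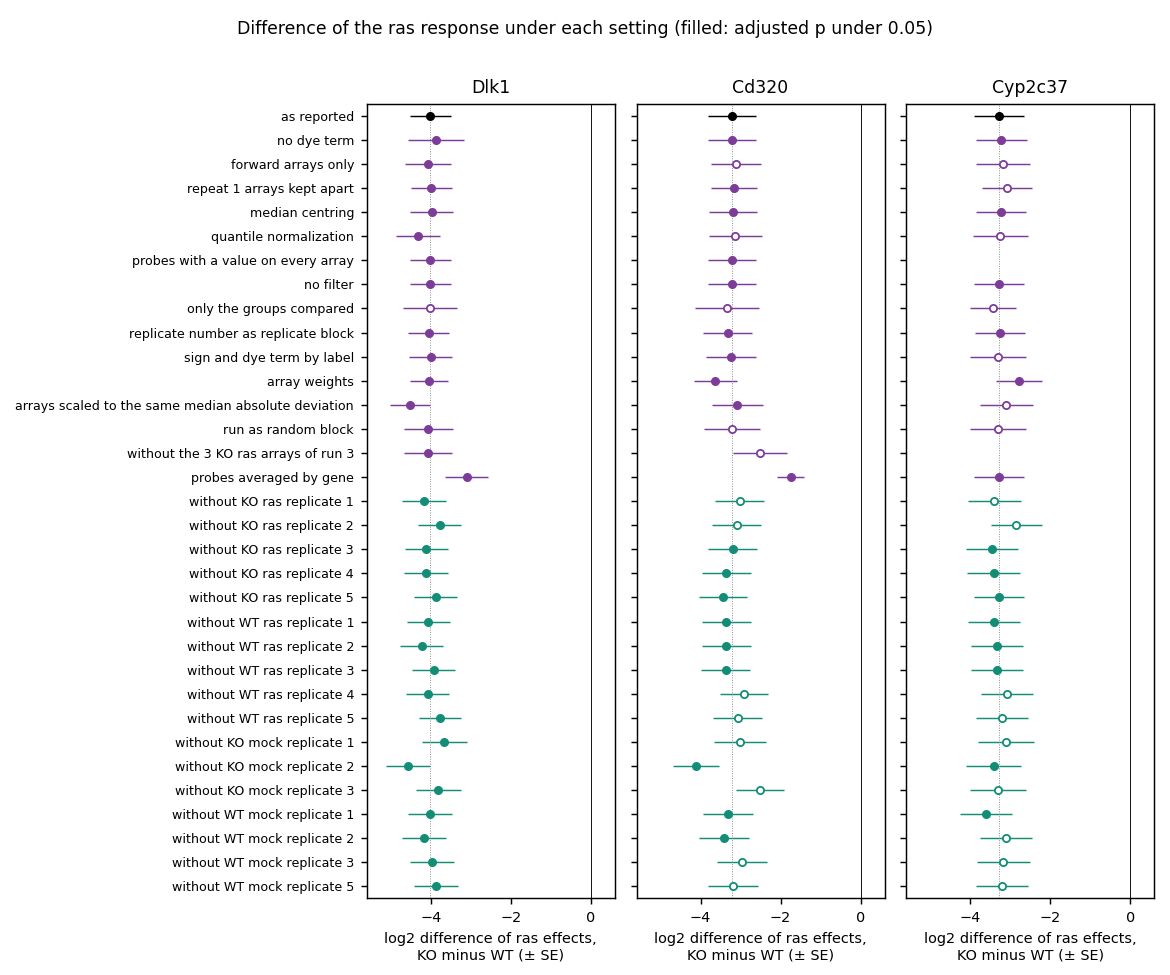
Fitted difference of the ras response, KO minus WT, on the log2 scale with SE (horizontal axis), as reported (black), under each other setting (purple) and without each sample in turn (green), for the first *Dlk1* probe, the first *Cd320* probe and *Cyp2c37*; filled points pass an adjusted p of 0.05. All points lie below 0, and *Dlk1* passes in every setting but the fit on the 4 groups alone.

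Just outside the threshold, in the same comparison, lay *Defb1*, *Krt84* and *Cdh23*, given here as values only. *Krt84*, a keratin of hair and nail, had a difference of −3.07 ± 0.65, with means of −0.25 in KO ras, 2.83 in KO mock, −0.02 in WT ras and 0.06 in WT mock. This is the layout of *Dlk1*, with KO mock alone high. *Defb1*, a beta-defensin, had 2.74 ± 0.57, with means of 2.17 in KO ras, 0.68 in KO mock, 0.52 in WT ras and 1.75 in WT mock. *Cdh23*, a cadherin known from hair cells of the inner ear, had −1.75 ± 0.38, with means of −0.81 in KO ras, 0.12 in KO mock, −0.26 in WT ras and −1.09 in WT mock.

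Markers of other cells were read beside the KO mock values. The mean ratio of 14 hair follicle and appendage markers was 0.93 to 2.55 in KO mock, against 0.24 to 1.24 in WT mock and 0.16 to 1.69 in all other samples. In KO minus WT in mock 2 of the 14 passed with a higher level, as did 0.674% of all probes. They were *Sostdc1*, a secreted inhibitor of BMP and Wnt signals (3.16 ± 0.78, adjusted p = 0.0301 in limma), and *Krt84* (2.84 ± 0.50). *Krt84* was named above for its values on these same arrays, so its difference here is a description only. Of the 19 keratinocyte markers, whose mean was 2.97 to 5.06 in KO mock against 2.79 to 4.09 in WT mock, 3 passed with a higher level: the keratins *Krt15* (3.13 ± 0.48, 0.000136), *Krt14* (3.09 ± 0.82, 0.0447) and *Krt10* (2.37 ± 0.56, 0.0248). The mean of 18 fibroblast markers was −0.82 to −0.43 in KO mock, against −1.53 to −1.17 in WT mock and −2.88 to −0.19 in all others. The mean of 10 melanocyte markers was 0.84 to 3.23 in KO mock, against 1.10 to 2.26 in WT mock, and that of 11 preadipocyte and adipocyte markers was −1.04 to −0.57 in KO mock, against −1.76 to −0.75 in WT mock and −2.10 to 0.08 in all other samples. Endothelial markers, 9 in all, averaged −1.45 to −0.68 in KO mock, against −3.45 to −1.06 in WT mock, and 14 leukocyte and Langerhans cell markers −1.87 to −0.48, against −2.89 to −1.13. None of the fibroblast, melanocyte, adipocyte, endothelial or leukocyte markers passed in mock. The median KO minus WT difference in mock was above that over all probes (0.05) in each list: 1.18 for keratinocyte, 1.09 for hair follicle, 1.07 for endothelial, 0.96 for melanocyte, 0.82 for leukocyte, 0.67 for fibroblast and 0.40 for adipocyte markers. KO mock is alone in its run, so run and genotype cannot be told apart in these differences. The part of these markers in the *Dlk1* and *Cd320* values was not tested.

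Ras cells given an inhibitor were outside the contrast that chose the genes, but their arrays added to its fitted spread and dye term. In a fit on only the groups compared, 0 member probes passed in that contrast. The genotype difference was tested in the ras cells given an inhibitor, and only *Cyp2c37* passed. Averaged over the 3 inhibitors, KO minus WT in ras cells was −0.77 ± 0.23 for *Cyp2c37* (95% interval −1.23 to −0.31, adjusted p = 0.0287 in limma). In this comparison 6.48% of 27441 probes passed, 3.49% with a lower and 2.98% with a higher level in KO. The other probes gave −0.01 ± 0.19 and −0.26 ± 0.29 for *Dlk1* and −0.23 ± 0.22 and −0.19 ± 0.19 for *Cd320*. For the first *Dlk1* probe the 95% interval ran from −0.40 to 0.38 and for the first *Cd320* probe from −0.67 to 0.22.

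With each inhibitor alone no member probe passed as fitted, but run or array weights changed this for single inhibitors. With AG1478, *Cyp2c37* in KO ras cells read −1.35 at the lowest, −1.07 at the median and −0.02 at the highest, against −0.70, −0.93, 1.14, 0.97 and −1.24 in WT ras cells. The groups overlapped, and the difference was −0.78 ± 0.38 (adjusted p = 0.301 in limma; 2.22% of probes passed), and −0.44 without WT ras AG1478 replicate 3. With run as a fixed block it was −1.92 ± 0.43 (adjusted p = 0.00964 in limma), and the second *Dlk1* probe was −2.28 ± 0.53 (0.0116). With erlotinib it read −1.13, −1.42, −2.34 and −1.16 in KO ras cells, against −0.07, −0.59, −0.46, −1.69 and −0.82 in WT ras cells. The difference was −0.80 ± 0.42 (adjusted p = 0.349 in limma; 0.945% passed), and WT replicate 4 lay among the KO values. With array weights it was −1.11 ± 0.38 (adjusted p = 0.0456 in limma), and the second *Cd320* probe was −0.87 ± 0.30 (0.0469). With PD153035 it read −1.09, −0.66, −1.45, −0.99 and −1.82 in KO ras cells, against −0.09, −0.98, −0.81, −0.32 and −0.15 in WT ras cells. The difference was −0.73 ± 0.39 (adjusted p = 0.55 in limma; 1.38% passed), with KO replicate 2 inside the WT range.

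Within runs, *Cyp2c37* was lower in KO in 3 of 4 cases. KO minus WT was −2.0 with AG1478 in run 8 (6 KO and 2 WT samples) and −0.73 with PD153035 in run 8 (5 and 5). It was −1.25 with erlotinib in run 5 (3 and 3) and 0.10 with erlotinib in run 6 (1 and 2). The WT ras samples with AG1478 divided by run: 1.14 and 0.97 in run 8, against −0.70, −0.93 and −1.24 in run 7, which held no KO sample. With run as a fixed block the mean over inhibitors was −1.18 ± 0.22 (adjusted p = 0.000302 in limma). With sign and dye order taken from the labels instead of the data, which changes 2 KO arrays with AG1478, it was −0.53 ± 0.25 (adjusted p = 0.314). Without WT ras AG1478 replicate 3 it was −0.66 (adjusted p = 0.0623), and 4 other single samples also took it past 0.05: WT ras AG1478 replicate 4, WT ras erlotinib replicate 1, KO ras erlotinib replicate 3 and KO ras PD153035 replicate 5.

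**Figure D4:**
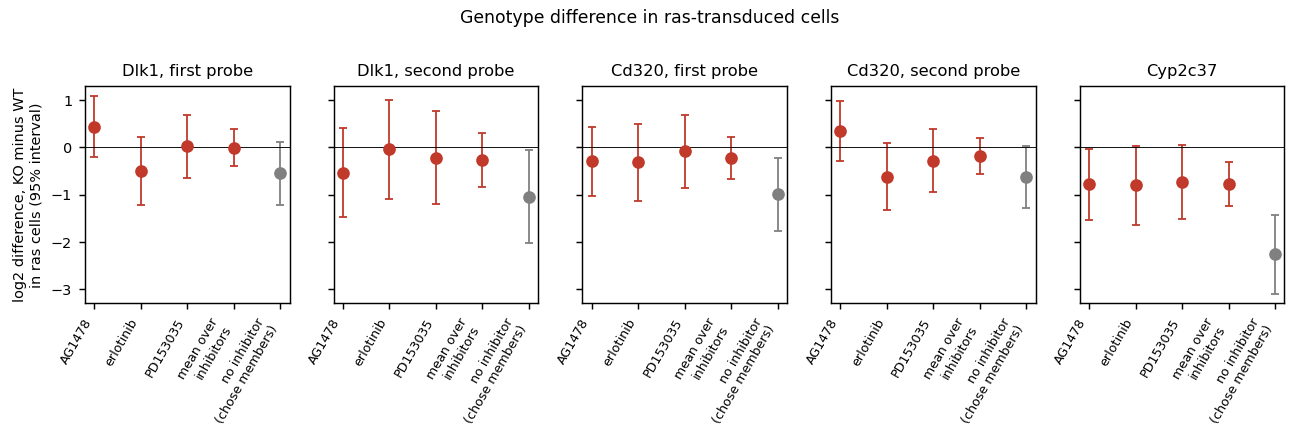
Fitted KO minus WT difference in ras cells, log2 with 95% interval (vertical axis), for each of the 5 probes with AG1478, erlotinib, PD153035, their mean (red) and without inhibitor (grey, part of the selection). The *Cyp2c37* estimates are negative throughout, near −0.8 with inhibitor and −2.26 without. The *Cyp2c37* intervals include 0 with erlotinib (−1.63 to 0.04) and PD153035 (−1.52 to 0.06), and not with AG1478 (−1.54 to −0.03) or in the mean. The intervals of the other probes with inhibitor all include 0.

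The ras effect in WT cells given an inhibitor, also outside the contrast that chose the genes, passed for no member probe. Averaged over the inhibitors it was 0.02 ± 0.19 and −0.40 ± 0.28 for the *Dlk1* probes, 0.04 ± 0.22 and 0.07 ± 0.19 for the *Cd320* probes and −0.21 ± 0.23 for *Cyp2c37*, while 18% of 27588 probes passed (11.5% as higher and 6.54% as lower). The 95% interval for *Cyp2c37* was −0.66 to 0.25. With single inhibitors 5.17% (AG1478), 5.23% (erlotinib) and 1.19% (PD153035) of probes passed, none of them a member. WT mock with inhibitor lies in runs 1 and 2, and WT ras with inhibitor in runs 5 to 8. Ras and run therefore cannot be told apart in these comparisons. With run as a random block 520 probes passed in the mean over inhibitors, against 4964 as reported.

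The 3 inhibitors were compared with each other within each probe. F tests in limma among the 3 inhibitors passed for no member probe in KO ras (3.89% of probes passed), in WT ras (1.67%) or in WT mock (0%, with 2.07% at an unadjusted p under 0.05). The smallest member value was for the second *Dlk1* probe in WT ras (F = 3.01, adjusted p = 0.309 in limma). Set beside the cells without inhibitor, the 3 inhibitor groups of KO ras averaged −0.94, −1.51 and −1.20 for *Cyp2c37*, against −2.07 without, and −0.46, −0.66 and −0.72 for the first *Cd320* probe, against −1.60 without (AG1478, erlotinib, PD153035). KO ras with AG1478 or PD153035 shares no run with KO ras, and no WT ras inhibitor group shares a run with WT ras. In these cases inhibitor and run cannot be told apart. In WT ras the *Cyp2c37* groups averaged −0.15, −0.73 and −0.47, against 0.17 without. In WT mock they averaged −0.40, −0.16 and −0.17, against −0.75 without.

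Likeness between members is given as a description. Over the 13 group means, which share the reference pool, the first *Dlk1* and *Cd320* probes had a Pearson r of 0.903, and 0.402 without KO mock. *Cyp2c37* had 0.469 with *Dlk1* (0.47 without KO mock) and 0.652 with *Cd320* (0.722 without). Of 2029 candidate probes whose group means spanned at least 2, those most like *Dlk1* were *Krt84* (r = 0.959), *Fxyd6* (0.908), *Gpc3* (0.899), *Ppfibp1* (0.882) and *Mei4* (0.880). KO mock was their highest group, which follows from the choice, since *Dlk1* stands out only in KO mock and the span was required: 1.84 in KO mock against −0.60 to 0.16 for the glypican *Gpc3*, and 1.33 against −1.30 to −0.63 for *Fxyd6*, a regulator of the sodium pump. Those most like *Cd320* were *Stk32a* (0.965), *Agpat1* (0.936), *Usp37* (0.935), *Derl1* (0.919) and *Ccdc134* (0.906), for which the same holds. *Derl1*, which acts in endoplasmic reticulum quality control, averaged 2.36 in KO mock, against −1.27 to 0.65 in the other groups. Those most like *Cyp2c37* were *Sdc4* (0.893), *Hmgn5* (0.788), *Ces4a* (0.787), *Bahcc1* (0.774) and *H2ac12* (0.748). *Sdc4*, a heparan sulfate proteoglycan of the cell surface, averaged 0.70 in KO mock, against −1.01 to 1.07 in the other groups.

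Around *Dlk1*, 26 of 28 listed Notch receptors, ligands and targets were measured, and none passed in KO minus WT in mock or in the difference of ras responses. *Dlk2*, the closest relative of *Dlk1*, averaged 0.83 in KO mock, against −0.37 in WT mock, a difference of 1.15 ± 0.47 (adjusted p = 0.182 in limma). In inhibitor-treated ras cells 3 of the 26 were higher in KO and passed (as did 2.98% of all probes), with a list median of 0.17 against −0.04 over all probes. They were the receptor *Notch1* (1.33 ± 0.19, adjusted p = 3.23e-06) and the ligands *Jag1* (1.15 ± 0.33, 0.0243) and *Jag2* (0.88 ± 0.23, 0.0119). *Notch1* averaged 2.39, 2.76 and 2.22 in KO ras with AG1478, erlotinib and PD153035, against 0.95, 1.63 and 0.83 in WT ras with the same inhibitors. Of 21 listed imprinted growth genes 18 were measured, none passed in mock, and 2 were lower in KO in inhibitor-treated ras cells and passed (as did 3.49% of all probes): *Igf2r*, which clears insulin-like growth factor 2 (−0.92 ± 0.23, 0.00904), and *Gnas*, the stimulatory G protein subunit (−1.24 ± 0.28, 0.00231). *H19* averaged 1.97 in KO mock against 1.09 in WT mock (0.83 ± 0.83, 0.633) and *Igf2* −0.35 against −0.53 (0.18 ± 0.37, 0.839). *Meg3* is not analysed here.

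Around *Cd320*, 12 of 19 listed genes of cobalamin uptake and use were measured, and none passed in mock, in the difference of ras responses or, with 11 of them tested, in the mean over inhibitors between genotypes. *Tcn2*, the transcobalamin that the *Cd320* receptor binds, averaged −2.23 in KO mock against −2.52 in WT mock (0.31 ± 0.41, adjusted p = 0.734 in limma). *Lmbrd1*, which exports cobalamin from the lysosome, averaged 0.51 against −0.63 (1.06 ± 0.41, 0.164). The cobalamin-dependent methionine synthase *Mtr* averaged −0.39 against −0.55 (0.16 ± 0.35, 0.847) and the cobalamin-processing *Mmachc* 0.20 against −0.04 (0.25 ± 0.45, 0.809). The 1 call in the list was *Abcc1*, a transporter, lower with ras in WT cells given erlotinib (−1.07 ± 0.29, 0.0194), as were 1.24% of all probes. Ras and run cannot be told apart there.

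Around *Cyp2c37*, 9 of 15 listed genes of the Cyp2c family were measured, and how far a probe also reads its close relatives in this family was not tested. In inhibitor-treated ras cells 8 of the 9 had a negative KO minus WT difference and 1 passed as lower (3.49% of all probes did), with a list median of −0.39 against −0.04 over all probes. It was *Cyp2c50* (−1.86 ± 0.28, adjusted p = 5.97e-06 in limma), which also rose with ras in WT cells given inhibitors (1.31 ± 0.28, 0.000473), as did 11.5% of all probes. For that rise, ras and run cannot be told apart. Without inhibitor *Cyp2c50* had −1.56 ± 0.48 for KO minus WT in ras (0.068). *Cyp2c38* gave −0.69 ± 0.25 (0.079), *Cyp2c55* −0.45 ± 0.27 (0.348) and *Cyp2c29* 0.17 ± 0.19 (0.673) in the mean over inhibitors. None of the 9 passed in mock or in the difference of ras responses.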

How the data were processed

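Arrays of mouse oligonucleotide probes carried 2 dyes, and the deposited values are log ratios per probe, taken as log2; the log base, scale, centring method and direction are not given in the sources used here (array medians −0.072 to 0.067, values −9.374 to 10.78). Per the labels' protocols, Trizol RNA was labelled indirectly and 12 of 63 arrays have reversed dyes. Each array's ratios were put as sample over reference by whether they correlated positively or negatively with the median of the forward-labelled arrays; 2 arrays, KO ras with AG1478 replicates 3 and 4, went against their label. The 2 WT mock arrays labelled repeat 1 (r = 0.834) were averaged, giving 62 samples. Of 28049 probes, 20925 had 1 symbol, 159 several and 6965 none in the platform annotation.

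Differences were fitted with limma 3.58.1 in R 4.3.3 with statmod 1.5.0 (figures in Python 3.11.15 with matplotlib 3.10.9) on all 13 groups with a dye term and empirical Bayes moderation; p-values were adjusted by Benjamini and Hochberg over all probes tested, with a threshold of 0.05. A probe needed values on 60% of the arrays of each group compared, and all 5 member probes passed this. Runs are experiment numbers parted at gaps over 100. The 5 comparisons that chose the members carry no test for the member probes. Adjusted p-values given for other genes in these comparisons come from the same fit. Another 8 comparisons and 3 F tests do not use KO mock or untreated ras cells in the contrast, but all share the fitted spread. Nothing beyond the series' statement of biological replicates says that samples came from separate cultures, so p-values measure the spread between these samples. The number of arrays limits precision.

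Members and lists were chosen with earlier results of these data known. Named genes were every member probe, the 5 most alike per member (range of group means at least 2), the 3 next past the threshold, list members called in a comparison or named in advance, and *Egfr*. Tested on simulated data, the fit recovered 0, 30, 82 and 88% of log2 differences of 1, 2, 3 and 4 in the difference of ras responses (27852 probes), with 6.54% false calls. In the mean over inhibitors (27441 probes) it recovered 68% of differences of 1, with 5.32% false calls. The simulated noise was normal and independent between arrays, while real arrays of a run had a consensus correlation of 0.242. These shares therefore do not cover run effects. Alternatives covered the dye term, dye order, scaling, normalization, filter, samples fitted, probe averaging, run, replicate number, sign, array weights and each sample left out; scaling to one median absolute deviation and leaving out the KO ras arrays of run 3 were chosen after seeing the data.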

Additional observations from a re-analysis of the deposited data

Results flagged for a closer look

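The ras response differed between KO and WT by −4.01 ± 0.52 for the first *Dlk1* probe, −3.22 ± 0.60 for the first *Cd320* probe and −3.28 ± 0.63 for *Cyp2c37* (log2 ± SE); these differences are what the genes were chosen for.

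Single samples stood far from the others of their group in 4 of 60 cases, a case being 1 of the 5 probes in 1 of the 12 groups with 4 to 6 samples; chance gives about 1 in 20. At the first *Dlk1* probe they were KO ras with AG1478 replicate 3 (1.51) and WT ras with PD153035 replicate 1 (−0.48). At the first *Cd320* probe it was WT mock with AG1478 replicate 4 (−1.34). For *Cyp2c37* it was KO ras with AG1478 replicate 2 (−0.02). The KO mock group, with 3 samples, is too small for this rule.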

How the results depend on the processing

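Of the 3 member probes past the threshold in the difference of ras responses, 1 passed with forward arrays only, with quantile normalization, with run as a random block (consensus correlation 0.242) and without the KO ras arrays of run 3, and 0 in a fit on only the groups compared. *Cyp2c37* alone was lost with repeat 1 arrays kept apart, with sign and dye by label and with arrays scaled to one median absolute deviation (adjusted p = 0.0572, 0.15 and 0.0537 in limma), and it passed in 6 of 13 settings in all; 1 to 3 probes passed without single samples. Averaging probes by gene gave −3.10 for *Dlk1* and −1.75 for *Cd320*, and *Cd320* was −2.51 without the KO ras arrays of run 3. Without single samples *Dlk1* ran from −4.57 to −3.66, *Cd320* from −4.12 to −2.52 and *Cyp2c37* from −3.61 to −2.85. Member calls for ras in KO (3) were 0 in the fit on only the groups compared and 2 to 3 without single samples. Those for KO minus WT in mock (2) were 0 in that fit, 1 with run as a random block, 1 with probes averaged by gene and 1 to 2 without single samples. Those for KO minus WT in ras (1) were 0 with probes valued on every array, in the fit on only the groups compared, with run as a random block and without the run 3 arrays, and 2 with array weights and with probes averaged by gene. With AG1478 (0) they were 2 with run as a fixed block, and with erlotinib (0) they were 2 with array weights. In the mean over inhibitors (1) they were 0 with forward arrays only, with probes valued on every array (*Cyp2c37* lacks 1 value) and with sign and dye by label, and 0 to 1 without single samples; *Cyp2c37* itself ran from −1.18 to −0.53 over 14 settings, 12 of them past the threshold, and from −0.88 to −0.66 over 30 single samples left out, 25 of them past it. Among inhibitors in KO ras (0) they were 1 with sign by label and 1 with array weights. The cause of these changes was not tested beyond the smaller number of samples or probes where a setting leaves some out.

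Samples with the same replicate number did not deviate together in every pair (correlations −0.36 to 0.48, with a pair at or under 0.1 in every comparison). These correlations cannot tell whether such samples share a culture or day, and the main fit did not pair them. With the replicate block the differences were −4.05, −3.32 and −3.26, and 3 member probes passed. The mean over inhibitors for *Cyp2c37* was then −0.79 (adjusted p = 0.0248 in limma). Apart from left-out samples, counts over all probes ran from 0 to 235 in the difference of ras responses (3 as reported), from 5 to 860 for ras in KO (151), from 4 to 4915 for KO minus WT in mock (310), from 1 to 2340 for KO minus WT in ras (536), from 904 to 4884 in the mean over inhibitors between genotypes (1777) and from 520 to 7592 in that for ras in WT (4964), with the highest count of each under array weights. Without single samples they ran from 1 (KO mock replicate 1) to 50 (KO mock replicate 2) in the first, from 41 to 282 (the same samples) in the second, from 64 (KO mock replicate 3) to 474 (KO mock replicate 2) in the third and from 83 (WT ras replicate 5) to 1007 (KO ras replicate 5) in the fourth.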

Other observations

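Of 22 listed genes of arachidonate and foreign compound oxidation outside the Cyp2c family 17 were measured. In mock cells 1 passed, as lower (0.437% of all probes did): *Ptgs2*, the inducible cyclooxygenase that acts on arachidonic acid, lower in KO than in WT (−5.50 ± 0.92, adjusted p = 0.000628 in limma), where run and genotype cannot be told apart. In ras cells, averaged over inhibitors, 15 of the 17 had a negative KO minus WT difference (median −0.39, against −0.04 over all probes) and 1 passed as lower (3.49% of all probes did): *Cyp4f39*, a P450 of fatty acid hydroxylation in the epidermis (−1.04 ± 0.30, 0.0254). With ras in WT cells given inhibitors, 9 passed as higher and 1 as lower (11.5% and 6.54% of all probes did), with a median of 0.82 against 0.05, and *Cyp4f39* was among the higher ones (1.32 ± 0.30, 0.00115). The epidermal lipoxygenases *Alox12b* (1.12 ± 0.40, 0.0414) and *Aloxe3* (0.82 ± 0.28, 0.0353) were also higher with ras there. In that comparison of WT cells given inhibitors, ras and run cannot be told apart.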
